A study of Homo sapiens with 4 samples.

Results

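The intermediate filament genes described here are 10 genes of the vimentin, keratin and lamin families: VIM, the type II keratins KRT7, KRT8, KRT80 and KRT81, the type I keratins KRT18 and KRT19, and the lamins LMNA, LMNB1 and LMNB2. They were chosen by name from a table of 20329 genes, and all 10 have a row in it. All 10 also passed the filter on low values, a mean of at least 1 FPKM (fragments per kilobase of transcript, scaled to the mapped fragments of the library), which left 13928 genes to test. RNA was measured in 4 libraries from derivatives of MDA-MB-231, an established human cell line from a triple-negative breast cancer. BM1 (also called 1833) is a bone metastasis derivative and LM2 (also called 4175) a lung metastasis derivative. The 4 groups were BM1 with a non-specific shRNA, BM1 with an shRNA against hnRNPM, LM2 with the non-specific shRNA and LM2 with the hnRNPM shRNA. All 4 carried a stably expressed shRNA delivered by a lentiviral vector, and all grew in the same serum-containing medium. By its title, the study concerns hnRNPM, an RNA-binding splicing factor, and the epithelial splicing factor ESRP1 in the epithelial-mesenchymal transition (EMT). Each group has 1 library, so BM1 and LM2 each stand for 1 derivative line, and neither the number of shRNA sequences nor the number of clones is given in the sources used here. Where 4 values are listed in a row below, each control is followed by its knockdown, BM1 first and LM2 second.

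Intermediate filaments are built from proteins that share a central coiled-coil rod. Keratins form obligate heteropolymers of a type I and a type II partner and are the filaments of epithelial cells, whereas vimentin, a type III protein, assembles with itself and is the filament of mesenchymal cells. The exchange of keratins for vimentin is a textbook mark of EMT, and MDA-MB-231 is known to carry both. Lamins form the meshwork under the inner nuclear membrane: LMNA encodes the A-type lamins A and C, and LMNB1 and LMNB2 encode the B-type lamins.

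The end of the rod is the most conserved stretch of the family and is shown for 9 of the genes because it is what makes them 1 family. Each line gives the 27 bases, 9 codons, that encode this end in the gene's GENCODE release 29 transcript, 5′ to 3′ on the coding strand. Capitals mark the 11 bases that are the same in all 9 genes.
VIM: aCcTACaGgaagCTgcTgGAaGgcgag
KRT8: aCcTACaGgaagCTgcTgGAgGgcgag
KRT80: aCcTACaGgaagCTggTgGAgGgcgag
KRT7: aCcTACcGcaagCTgcTgGAgGgcgag
KRT81: aCcTACaGgcgcCTgcTgGAgGgcgag
KRT18: aCcTACcGccgcCTgcTgGAaGatggc
KRT19: aCcTACcGcagcCTgcTcGAgGgacag
LMNB1: gCtTACaGgaaaCTctTaGAaGgcgaa
LMNB2: gCcTACcGgaagCTccTgGAgGgcgag

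In GRCh38, the stretch lies in exon 7 of 10 of VIM at chr10:17235355-17235381 on the plus strand. It lies in exon 7 of 9 in the 4 type II keratins, at chr12:52898687-52898713 (minus) in KRT8, chr12:52172206-52172232 (minus) in KRT80, chr12:52245598-52245624 (plus) in KRT7 and chr12:52287110-52287136 (minus) in KRT81. In KRT18 it lies in exon 6 of 7 at chr12:52952305-52952331 (plus), and in KRT19 in exon 6, the last of 6, at chr17:41523785-41523811 (minus). In the B-type lamins it lies in exon 6 of 11 of LMNB1 at chr5:126819108-126819134 (plus) and in exon 7 of 12 of LMNB2 at chr19:2434303-2434329 (minus). VIM and KRT8 had 26 of the 27 bases in common, and the least alike pair of the 9, KRT18 and LMNB1, had 13. KRT19 encoded the shortest of the 10 proteins, 400 residues, and LMNA the longest, 664.

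The targeted gene was checked first. HNRNPM was 171 FPKM in the BM1 control and 28.4 in the BM1 knockdown, which left 16.6% of the control level. It was 132 FPKM in the LM2 control and 20.3 in its knockdown, which left 15.4%. The 4 libraries summed to between 434567 and 455114 FPKM. Their depth, read from the spacing of the low FPKM values, was about 31300000 and 22800000 fragments in the BM1 pair and 41500000 and 27200000 in the LM2 pair. Mitochondrial genes took 9.31% and 8.80% of the FPKM sum in the BM1 and LM2 controls and 12.8% and 11.8% in the knockdowns. Depth and this share moved with the knockdown, and their part in the results below was not tested. ESR1 and PGR, the hormone receptor genes that a triple-negative line should lack, had no row in the table, and ERBB2 was between 13.5 and 21.9 FPKM. All 5 genes known to be expressed in MDA-MB-231 (CD44, EGFR, CAV1, AXL and LGALS1) were present at 31.4 FPKM or more in every library. Of 5 blood cell markers only CD14 had a row (1.47 to 7.09 FPKM), and of 4 endothelial markers only VWF and KDR had one, at 1.5 FPKM or less.

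With hnRNPM knocked down, the type II keratins KRT80, KRT7 and KRT8 rose over both lines. These were 3 of the 10 genes called higher over both lines by limma at an adjusted p under 0.05, where 2.71% of all tested genes were called higher, and 0 of the 10 were called lower, where 2.76% of all tested genes were. The fit treats BM1 and LM2 as the only replication, with 1 residual degree of freedom. It also draws each gene's variance towards that of all genes, with a weight of 7.70 prior degrees of freedom. Its p-values therefore set the mean change against a disagreement between the 2 lines taken mostly from all genes. They do not measure the spread between cultures. Within each line the 10 genes were read by a fixed rule of at least 2-fold, with no test. By that rule 4 were higher and 1 lower in the BM1 knockdown (10.1% and 6.20% of all tested genes). In the LM2 knockdown 4 were higher and 0 lower (3.83% and 4.24% of all tested genes). The median difference of the 10 genes over both lines was 0.29 on the log2(FPKM + 1) scale, against -0.01 for all genes tested. Where both knockdowns are said below to lie above or below both controls, the share of all tested genes that do so was not counted. Such an order of 4 libraries is a description and not a test.

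**Figure D1:**
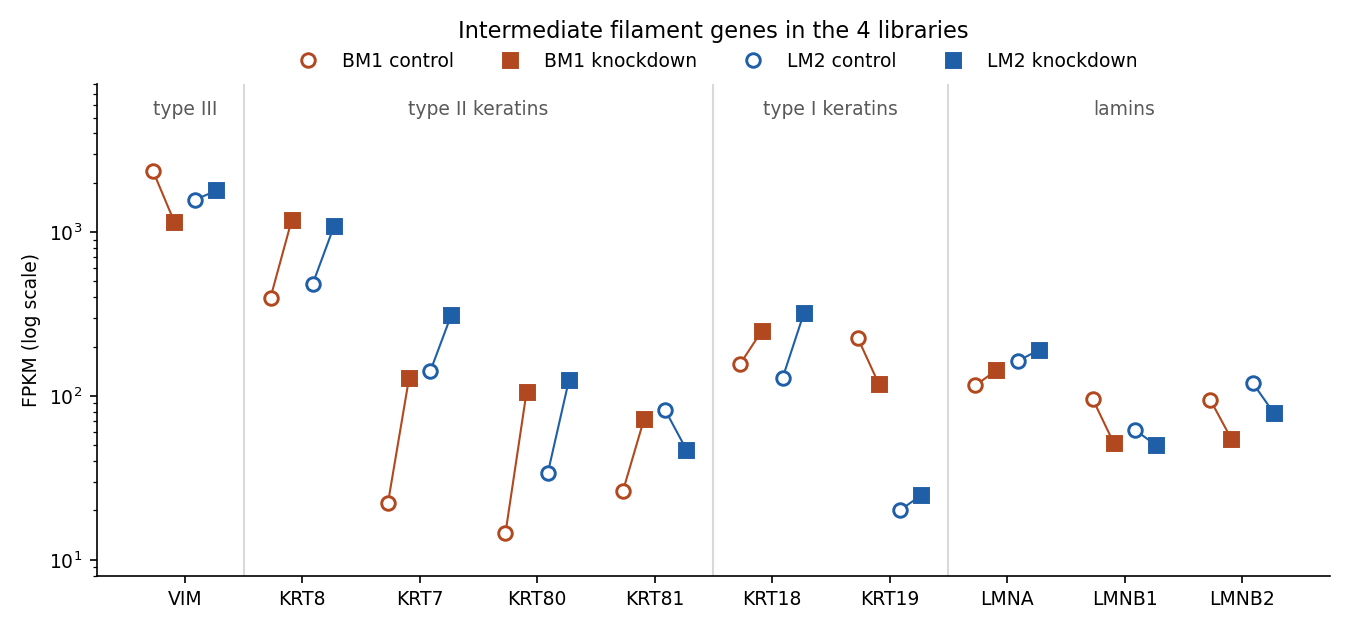
FPKM of each of the 10 genes (log axis) in the 4 libraries, with open circles for controls, filled squares for knockdowns and a line joining the pair of each cell line, so each point is 1 library. KRT8, KRT80 and KRT18 are higher in both knockdowns than in both controls, while VIM, KRT19 and KRT81 move in opposite directions in BM1 and LM2. The order of the 4 libraries is a description, and the share of all tested genes with such an order was not counted.

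KRT80, a type II keratin of many epithelia, had the largest change of the 10. Its level was 14.6 FPKM in the BM1 control and 106 in the BM1 knockdown, and 33.8 in the LM2 control and 125 in its knockdown. Both knockdowns were above both controls, by 7.29-fold in BM1 and 3.69-fold in LM2. Over both lines the difference was 2.32 ± 0.30 (SE) on the log2(FPKM + 1) scale with an adjusted p of 0.00892 by limma. KRT80 was the 4962nd most abundant gene of the table in the BM1 control and the 608th in the BM1 knockdown.

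KRT7, the type II keratin of ductal and glandular epithelia, was 22.3 FPKM in the BM1 control and 129 in the BM1 knockdown. In LM2 it was 142 FPKM in the control and 313 in the knockdown. Each knockdown was above its own control, by 5.80-fold in BM1 and 2.21-fold in LM2, but the BM1 knockdown lay just below the LM2 control. The difference over both lines was 1.81 ± 0.34 (SE) on the log2(FPKM + 1) scale with an adjusted p of 0.0233 by limma.

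KRT8, which with KRT18 forms the filament pair of simple epithelia, was the most abundant keratin in every library. Its FPKM was 398 with the control shRNA and 1181 with knockdown in BM1, and 485 and 1083 in LM2. The 2 controls were close to each other, as were the 2 knockdowns, and the groups did not overlap. The ratio of knockdown to control was 2.96 in BM1 and 2.23 in LM2, and the difference over both lines was 1.36 ± 0.26 (SE) on the log2(FPKM + 1) scale (limma adjusted p = 0.0253). KRT8 went from the 144th to the 26th most abundant gene in BM1 and from the 114th to the 28th in LM2.

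The calls for KRT80, KRT7 and KRT8 were lost under most other settings, while their differences kept their direction. Over 9 other settings that kept all 4 libraries each gene was called in 3, with adjusted p-values of 0.00467 to 0.274 for KRT80, 0.0232 to 0.502 for KRT7 and 0.00778 to 0.280 for KRT8, and no call held without any 1 of the 4 libraries (adjusted p of 0.326 or more). The difference of KRT7 itself was 0.51 without the BM1 control, 1.18 without the LM2 knockdown and 3.12 without the LM2 control. Those fits had no line term, so these values also hold part of the difference of KRT7 between the lines, 6.35-fold in the controls. Within the lines the knockdown differences of KRT7 were 2.48 in BM1 and 1.14 in LM2 on the log2(FPKM + 1) scale.

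KRT81, a type II keratin of hair and nail, was higher with knockdown in BM1 and lower in LM2. It was 26.3 FPKM in the BM1 control and 72.2 in the BM1 knockdown, but 81.8 in the LM2 control and 47.0 in its knockdown. The knockdown was thus 2.75-fold above the control in BM1 and 1.74-fold below it in LM2. The 2 lines' changes differed by 2.21 on the log2 scale, a gap that 0.696% of all tested genes matched or exceeded, although with 1 library per group the gap itself could not be tested. Over both lines the difference was 0.32 ± 0.45 (SE) with a limma adjusted p of 0.703.

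Among the type I keratins, KRT18, the partner of KRT8, was 158 FPKM in the BM1 control and 248 in the BM1 knockdown, and 129 in the LM2 control and 319 in its knockdown. Both knockdowns were above both controls, by 1.58-fold in BM1 and 2.47-fold in LM2. The difference of 0.97 ± 0.27 (SE) on the log2(FPKM + 1) scale did not pass the test (limma adjusted p = 0.0750). It passed in 1 of the 9 other settings, empirical Bayes with both a mean trend and robust estimation, with an adjusted p of 0.0389 in a range of 0.0389 to 0.382.

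KRT19, the type I keratin with almost no tail domain, was 225 FPKM in the BM1 control and 118 in the BM1 knockdown. In LM2 it was 20.1 FPKM in the control and 24.8 in the knockdown. It was 1.91-fold lower with knockdown in BM1 and 1.23-fold higher in LM2, and both LM2 libraries were far below both BM1 libraries. The knockdown difference over both lines was -0.32 ± 0.32 (SE) on the log2 scale, with a limma adjusted p of 0.581.

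VIM, the filament protein of mesenchymal cells, was 2354 FPKM in the BM1 control and 1160 in the BM1 knockdown, a 2.03-fold lower level. In LM2 it was 1575 FPKM in the control and 1795 in the knockdown, a 1.14-fold higher level. VIM ranked 13th, 27th, 19th and 17th of all genes in the 4 libraries, so it stayed among the most abundant RNAs in each. The difference over both lines was -0.42 ± 0.32 (SE) on the log2(FPKM + 1) scale and did not pass the test (limma adjusted p = 0.465). In BM1 the difference of -1.02 lay just past the 2-fold rule, and it was -0.96 with each library scaled to the same sum and -0.69 after quantile normalization.

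**Figure D2:**
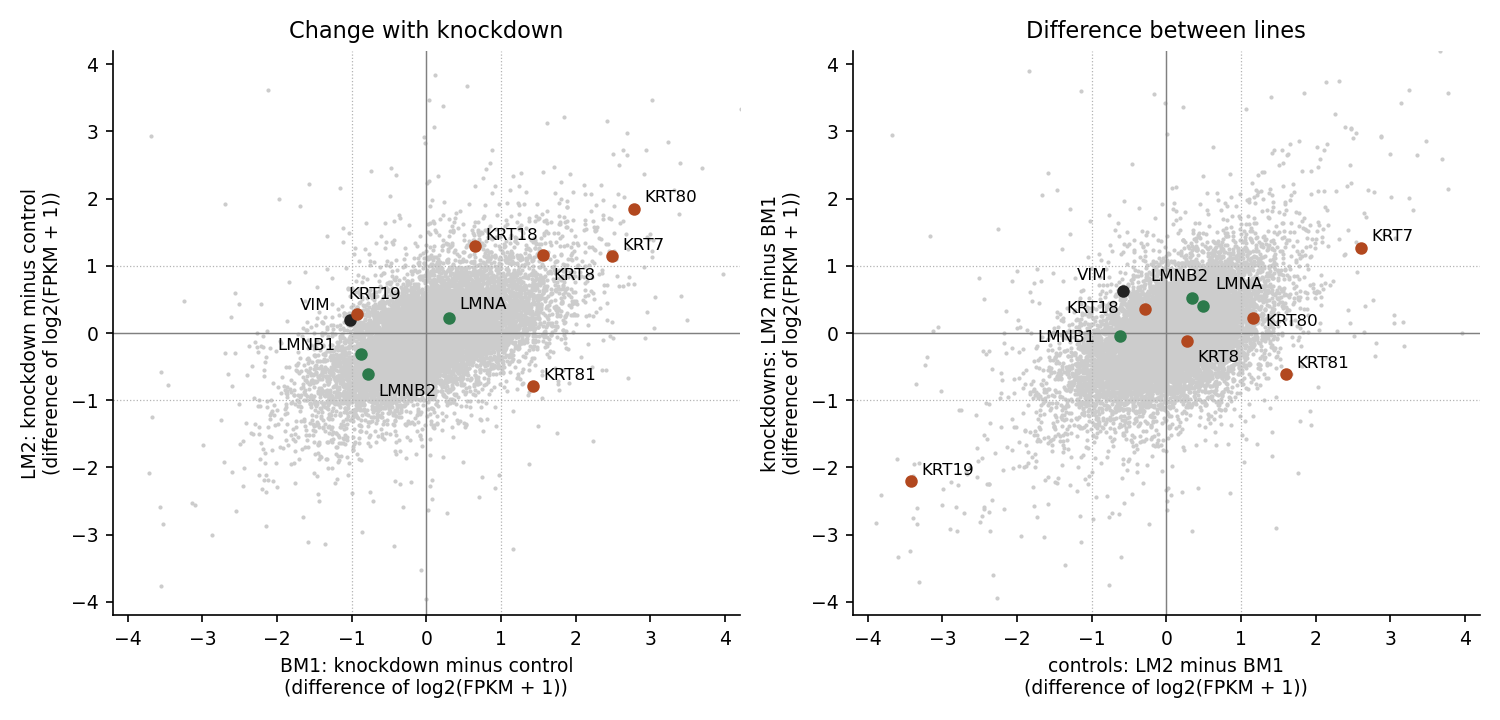
Differences of log2(FPKM + 1) for the 10 genes (vimentin black, keratins orange, lamins green) and all tested genes (grey), with BM1 against LM2 for the knockdown on the left and controls against knockdowns for LM2 minus BM1 on the right. Dotted lines mark 2-fold, and genes outside 4.2 in either direction are not drawn. KRT80, KRT7, KRT8 and KRT18 lie to the upper right on the left panel, KRT81 to the lower right, and KRT19 far to the lower left on the right panel.

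FPKM is a value per length, so levels of different genes can be summed and set side by side within a library. The 6 keratins together came to 844 FPKM in the BM1 control and 1854 in the BM1 knockdown, and to 892 in the LM2 control and 1912 in its knockdown. The keratin sum was 2.2-fold higher with knockdown in BM1 and 2.14-fold in LM2, and the 2 controls were within 1.06-fold of each other. Keratins made up 26.4% of the summed FPKM of VIM and the 6 keratins in the BM1 control and 61.5% in the BM1 knockdown. In LM2 their share was 36.1% in the control and 51.6% in the knockdown. VIM was 2.79 times the keratin sum in the BM1 control and 0.625 times in the BM1 knockdown, against 1.77 and 0.939 times in LM2, so the keratin sum was above VIM in both knockdowns and in neither control. In LM2 the knockdown values were 1912 and 1795 FPKM, close to each other with 1 library. The order also turned when VIM was summed with VIM-AS1, an overlapping antisense gene described below. That sum was 1982 FPKM in the BM1 knockdown and 2789 in the LM2 knockdown, above the keratin sum in both. The keratin sum was left without its own opposite-strand models. In the BM1 and LM2 knockdowns AC107016.1 in KRT18 was 260 and 349 FPKM, and RP3-416H24.1 in KRT7 was 13.1 and 36.3. The turn in BM1 therefore depended on adding an antisense gene to VIM only. In the BM1 knockdown KRT8 alone (1181 FPKM) was level with VIM (1160 FPKM), and with 1 library the order of the 2 cannot be given. In bulk RNA, a larger share of keratin-rich cells and more keratin RNA per cell cannot be told apart.

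The balance of the 2 keratin types differed between the BM1 control and the other 3 libraries. Of the 6 keratins, those of type II summed to 461 FPKM in the BM1 control and those of type I to 383, a ratio of 1.21. Other keratins of the table were left out of these sums. Among them was the type I gene KRT10, at 20.0 FPKM in the LM2 control, where KRT19 was 20.1. With knockdown in BM1 the ratio was 4.07, and in the LM2 pair it was 4.97 and 4.56. KRT19 alone took 26.7% of the summed FPKM of the 6 keratins in the BM1 control, against 6.34% in the BM1 knockdown and 2.25% and 1.30% in the LM2 pair. The type I sum was 383 and 366 FPKM in the BM1 control and knockdown, and 149 and 344 in the LM2 pair. Within the KRT8 and KRT18 pair, KRT8 was 2.53 and 4.76 times KRT18 in the BM1 pair and 3.75 and 3.39 times KRT18 in the LM2 pair, control first. That ratio was higher with knockdown in BM1 and lower in LM2, and KRT8 exceeded KRT18 in every library.

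**Figure D3:**
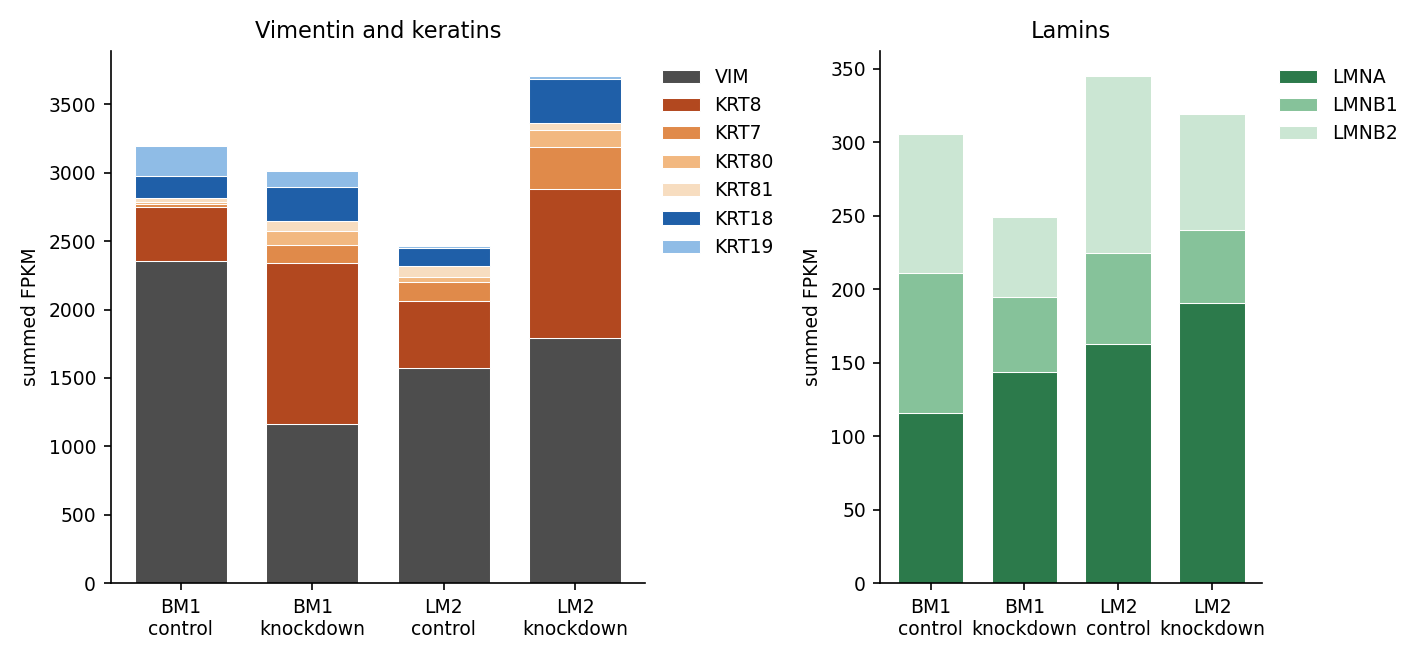
Summed FPKM (linear axis from 0) of VIM and the 6 keratins on the left and of the 3 lamins on the right, stacked by gene, for the 4 libraries, with 1 library per bar. The orange KRT8 block is more than 2-fold taller in each knockdown than in its control, the pale blue KRT19 block is thick in BM1 alone, and LMNA takes a larger share of the lamin bar in both knockdowns.

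The A-type lamin gene LMNA was 116 FPKM in the control and 144 in the knockdown of BM1, and 163 and 191 FPKM in the LM2 pair. Each knockdown was slightly above its control, and the groups overlapped. The difference over both lines was 0.27 ± 0.25 (SE) on the log2(FPKM + 1) scale (limma adjusted p = 0.549). LMNB1, a B-type lamin gene, was 95.4 and 51.3 FPKM in the BM1 control and knockdown and 62.0 and 49.9 FPKM in the LM2 pair. LMNB2, the other B-type lamin gene, was 94.7 and 54.6 FPKM in the BM1 pair and 120 and 78.9 FPKM in the LM2 pair. For both B-type genes the 2 knockdowns were below the 2 controls, but neither difference passed the test, with -0.59 ± 0.27 (SE) and an adjusted p of 0.214 for LMNB1 and -0.69 ± 0.25 (SE) and an adjusted p of 0.138 for LMNB2 by limma.

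LMNA was 0.610 times the sum of the B-type lamins in the BM1 control and 1.36 times in the BM1 knockdown. In LM2 it was 0.893 times in the control and 1.48 times in the knockdown. A-type RNA was therefore below B-type RNA in both controls and above it in both knockdowns, a description of 4 libraries with no test. The 3 lamins together differed less, with sums of 306 and 249 FPKM in the BM1 pair and 345 and 320 FPKM in the LM2 pair. The 3 genes also share the signal for membrane attachment at the end of the coding sequence, a cysteine codon 4 codons before the stop at which the protein is farnesylated. It is shown because the lamin processing enzymes described below act on it, and capitals mark the cysteine codon.
LMNA: TGCagcatcatg
LMNB1: TGTgcaattatg
LMNB2: TGCtacgtgatg

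These 12 bases lie in the last coding exon of each transcript, at chr1:156139092-156139103 (plus) in LMNA, chr5:126836250-126836261 (plus) in LMNB1 and chr19:2430914-2430925 (minus) in LMNB2, all in GRCh38. Lamin C, the other product of LMNA, ends before this signal, and the gene-level FPKM does not separate it from lamin A.

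Between the lines, KRT7 was higher and KRT19 lower in LM2 than in BM1. These were 1 of 10 genes called higher, where 2.31% of all tested genes were, and 1 of 10 called lower, where 2.04% were. KRT19 was 11.2-fold lower in the LM2 control than in the BM1 control and 4.75-fold lower in the LM2 knockdown than in the BM1 knockdown. Its difference over both treatments was -2.81 ± 0.32 (SE) on the log2(FPKM + 1) scale with a limma adjusted p of 0.00278. The call for KRT19 held in 7 of the 9 other settings that kept all libraries, with adjusted p-values of 0.00315 to 0.213. KRT7 was 6.35-fold higher in LM2 among the controls and 2.42-fold higher among the knockdowns, with a difference of 1.94 ± 0.34 (SE) and a limma adjusted p of 0.0173. The call for KRT7 held in 3 of those 9 settings, with adjusted p-values of 0.0164 to 0.554, and neither call held without any 1 library. The difference of KRT7 was 0.70 without the BM1 control and 3.18 without the BM1 knockdown. Those fits had no treatment term, so the values also hold part of the knockdown difference.

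By the 2-fold rule, 3 of the 10 genes were higher and 1 lower in the LM2 control than in the BM1 control (6.98% and 5.26% of all tested genes). They were KRT7, KRT80 and KRT81, and KRT19. Among the knockdowns 1 was higher, KRT7, and 1 lower, KRT19 (4.41% and 4.63% of all tested genes). KRT80 was 2.32-fold and KRT81 3.11-fold higher in the LM2 control than in the BM1 control, whereas among the knockdowns KRT80 was 1.17-fold higher and KRT81 1.54-fold lower in LM2. KRT8, KRT18 and VIM differed little between the lines on average, by 0.08 ± 0.26, 0.04 ± 0.27 and 0.02 ± 0.32 (SE) on the log2(FPKM + 1) scale. The 3 lamin genes were not called between the lines either, at 0.45 for LMNA, -0.33 for LMNB1 and 0.43 for LMNB2. The knockdown and line comparisons were made on the same 4 libraries.

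Several of the genes overlap others in the table's GRCh37 coordinates, and the sources used here do not say whether the authors' FPKM used the strand of the stranded libraries. VIM (chr10:17270258-17279592, plus strand) shares 1727 bases with VIM-AS1 and 1509 bases with RP11-124N14.3, both on the minus strand. VIM-AS1, an antisense RNA gene, was 1309, 822, 1535 and 995 FPKM in the 4 libraries, or 55.6%, 70.9%, 97.5% and 55.4% of VIM. It was lower with knockdown in both lines, by 0.67 in BM1 and 0.63 in LM2 on the log2(FPKM + 1) scale. RP11-124N14.3 was 395, 207, 366 and 308 FPKM in the same order, also lower with knockdown in both lines. Summed with VIM-AS1, VIM came to 3663 and 1982 FPKM in BM1 and to 3110 and 2789 FPKM in LM2. The sum was lower with knockdown in both lines, by 0.89 and 0.16 on the log2 scale, whereas VIM alone was 0.19 higher in LM2. FPKM of gene models of unequal length do not add as fragments do, and reads from VIM and its antisense partner cannot be told apart where strand was not used.

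KRT8 and KRT18 lie side by side on opposite strands, KRT8 at chr12:53290971-53343738 (minus) and KRT18 at chr12:53342655-53346685 (plus), and their models share 1084 bases. AC107016.1, a minus-strand model of which 186 bases lie in KRT18, was 168, 260, 124 and 349 FPKM. That was 107%, 105%, 96.1% and 109% of KRT18 in the same order. RP3-416H24.1, a minus-strand model inside KRT7 (chr12:52626304-52645970, plus), was 2.26, 13.1, 15.2 and 36.3 FPKM, or 10.1%, 10.2%, 10.8% and 11.6% of KRT7. Both small models thus kept nearly the same proportion to the keratin in every library. KRT86 shares 2887 bases with KRT7 on the same strand, and AC107016.2, of which 88 bases lie in KRT18 on the same strand, was listed at 7.3e-05 FPKM or less. LMNB2 (chr19:2427636-2456994, minus) shares 257 bases with TIMM13 on its own strand. KRT19 (chr17:39679869-39684560, minus), KRT80 (chr12:52562780-52585784, minus), LMNA (chr1:156052364-156109880, plus) and LMNB1 (chr5:126112315-126172712, plus) overlap no other gene of the table.

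**Figure D4:**
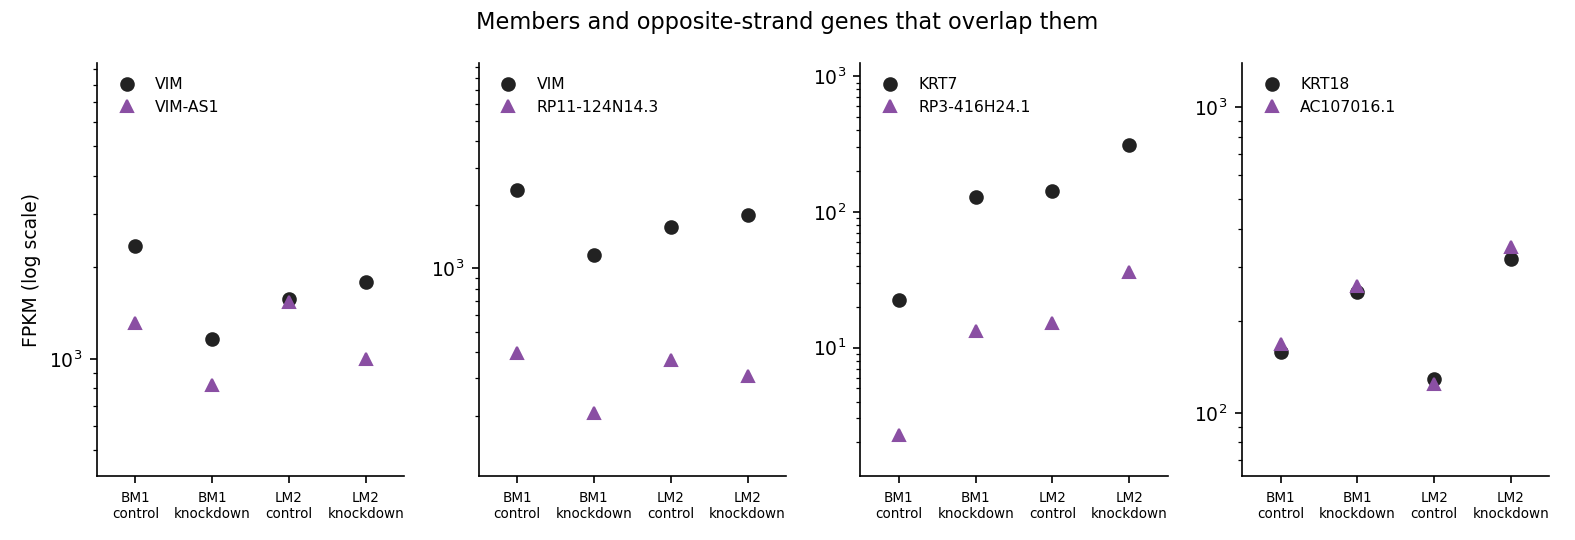
FPKM (log axis) of VIM, KRT7 and KRT18 (black circles) and of genes on the opposite strand that overlap them (purple triangles) in the 4 libraries, with 1 library per point. The triangles of RP3-416H24.1 and AC107016.1 follow KRT7 and KRT18 at a near constant distance, while VIM-AS1 reaches 97.5% of VIM in the LM2 control and about 55% in the BM1 control and LM2 knockdown.

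Several of the 10 transcripts also share sequence with near-identical copies or with overlapping genes. Of the 50-base words in the GENCODE transcripts, 41.3% of those of KRT8, 47.6% of KRT18 and 44.6% of KRT81 occurred in another gene on either strand. The share was 38.2% for VIM, 10.8% for KRT7, 1.79% for KRT19, 0.42% for KRT80 and 0 for each lamin. For VIM, 28.4% of the words occurred on the opposite strand of VIM-AS1 and 9.78% on that of AL133415.1. About 24% of the KRT8 words occurred in the pseudogene KRT8P3, and 38.4% of the KRT81 words in KRT86, whose protein was 90.5% identical to that of KRT81. Of the KRT18 words, 21.5% occurred on the opposite strand of KRT8, which overlaps KRT18. Of the KRT7 words, 10.4% occurred on the opposite strand of KRT7-AS. The levels of VIM, KRT7, KRT8, KRT18 and KRT81 are therefore uncertain to the extent that fragments were shared with these copies and overlapping genes. The 12 KRT8 pseudogenes of the table summed to 13.4, 29.3, 15.3 and 34.0 FPKM, which was 2.48% to 3.37% of KRT8. The 11 KRT18 pseudogenes summed to 0.746% to 1.14% of KRT18. Of 4 keratin pseudogenes that passed the filter, 2 were called higher with knockdown and 0 lower, where 2.71% and 2.76% of all tested genes were. They were KRT8P3 (1.17 ± 0.25 SE, limma adjusted p = 0.0359) and KRT8P36 (1.16 ± 0.25, adjusted p = 0.0385), while KRT87P was not called (0.25 ± 0.35, adjusted p = 0.706). To the extent that fragments were shared with KRT8, which was not tested, these 2 calls repeat that of KRT8.

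KRT86, a hair keratin whose model spans KRT81 on the opposite strand, was 2.77 and 7.85 FPKM in the BM1 control and knockdown and 3.19 and 2.67 FPKM in the LM2 pair. KRT87P, a pseudogene that shares 1721 bases with KRT7 on the opposite strand, was 1.29 and 3.51 FPKM in the BM1 pair and 4.5 and 2.93 FPKM in the LM2 pair. Both had the direction of KRT81, higher with knockdown in BM1 and lower in LM2. KRT86 was 3.90% to 10.9% of KRT81 over the 4 libraries, and KRT87P was 4.85% to 6.22%. Of the KRT81 words, 38.4% occurred in KRT86 and 9.04% in KRT87P. Whether shared fragments gave these genes the direction of KRT81 was not tested.

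Of 9 other keratin genes in the table, 5 passed the filter and 1 was called higher with knockdown, KRT17, with 0 called lower. KRT17, a type I keratin of basal and wounded epithelium, was 0.530 and 15 FPKM in the BM1 control and knockdown and 3.06 and 12.8 FPKM in the LM2 pair. Both knockdowns were above both controls, and the difference was 2.58 ± 0.37 (SE) on the log2(FPKM + 1) scale (limma adjusted p = 0.0120). KRT86 (0.52 ± 0.35) and KRT10, a keratin of differentiated epidermis (-0.17 ± 0.26), did not pass. The median over the 5 genes was 0.07, against -0.01 for all genes tested. Of all genes tested, 2.71% were called higher with knockdown and 2.76% lower.

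Of 14 other intermediate filament genes, 6 had a row and 5 passed the filter. With knockdown 1 was called higher and 1 lower, where 2.71% and 2.76% of all tested genes were. The median difference was -0.19, against -0.01 for all genes tested. BFSP1, the lens filament protein filensin, was called higher with knockdown (5.24 and 21.2 FPKM in the BM1 pair, 2.71 and 6.58 in the LM2 pair, 1.43 ± 0.28 SE, limma adjusted p = 0.0287). NES, the progenitor cell filament protein nestin, which assembles with vimentin, was called lower (5.36 and 0.584 FPKM in the BM1 pair, 4.36 and 1.43 in the LM2 pair, -1.57 ± 0.29 SE, adjusted p = 0.0228). GFAP, the astrocyte filament protein, was 2.92 and 0.736 FPKM in the BM1 pair and 2.65 and 0.978 in the LM2 pair. It did not pass (-1.03 ± 0.26 SE, limma adjusted p = 0.0528). Both GFAP knockdowns lay below 1 FPKM, so the gene passed the filter only through the control libraries, where it is high.

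Genes that link filaments to other structures included 12 plakins and linkers, of which 10 passed the filter. With knockdown 3 were called higher and 0 lower, where 2.71% and 2.76% of all tested genes were. The median difference was 0.55, against -0.01 for all genes tested. TRIM29, a TRIM family protein, was 0.220 and 11.2 FPKM in the BM1 control and knockdown and 0.0579 and 3.62 in the LM2 pair (2.72 ± 0.32 SE, limma adjusted p = 0.00652). Both of its controls lay below 1 FPKM, so it passed the filter only through the knockdown libraries, where it is high, and its call gives no support to the count of the list. PPL, the plakin periplakin that joins keratins to desmosomes and the cornified envelope, was 3.01 and 7.38 FPKM in the BM1 pair and 2.53 and 10.3 in the LM2 pair (1.37 ± 0.27 SE, adjusted p = 0.0279). FLG, the keratin-bundling protein filaggrin, was 1.08 and 3.71 FPKM in the BM1 pair and 2.57 and 8.64 in the LM2 pair (1.31 ± 0.25 SE, adjusted p = 0.0266). DST, the hemidesmosomal plakin dystonin, was 13.6 and 64.7 FPKM in the BM1 pair and 38.2 and 56.9 in the LM2 pair and did not pass (1.36 ± 0.37 SE, adjusted p = 0.0683).

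The 17 desmosome and hemidesmosome genes, the junctions at which keratins are anchored, had 11 rows, and all 11 passed the filter. With knockdown 1 was called higher and 0 lower, where 2.71% and 2.76% of all tested genes were. The median difference was 0.32, against -0.01 for all genes tested. PKP2, a desmosomal plaque protein, was 16.6 and 37.7 FPKM in the BM1 pair and 8.99 and 19.7 in the LM2 pair (1.09 ± 0.25 SE, limma adjusted p = 0.0433). DSC2, a desmosomal cadherin (0.86 ± 0.26), and JUP, the plaque protein plakoglobin (0.86 ± 0.28), did not pass. ITGB4, the hemidesmosomal integrin subunit that binds plectin, was 18.7 and 13.9 FPKM in the BM1 control and knockdown and 68.5 and 78.8 in the LM2 pair. It was the 1 gene of the list called between the lines, 2.12 ± 0.27 (SE) higher in LM2 (limma adjusted p = 0.00467), and its knockdown difference was -0.10 ± 0.27.

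Of 15 partners of the nuclear lamina and the LINC complex, which joins the lamina to the cytoskeleton, all 15 passed the filter. With knockdown 1 was called higher and 1 lower, where 2.71% and 2.76% of all tested genes were. The median difference was 0.07, against -0.01 for all genes tested. LBR, the lamin B receptor of the inner nuclear membrane, was 30.4 FPKM in the BM1 control and 6.06 in the BM1 knockdown, and 47.5 in the LM2 control and 8.45 in its knockdown. Both knockdowns were far below both controls, with a difference of -2.26 ± 0.25 (SE) on the log2(FPKM + 1) scale (limma adjusted p = 0.00615). TOR1AIP1, the inner nuclear membrane protein LAP1 that binds lamins, was 2.85 and 6.91 FPKM in the BM1 pair and 5.97 and 16.5 in the LM2 pair (1.18 ± 0.26 SE, adjusted p = 0.0363). SYNE3, the outer nuclear membrane protein nesprin-3, did not pass (-0.84 ± 0.25 SE, adjusted p = 0.0877).

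None of the 5 genes for the enzymes that process the lamin end shown above was called in either direction by limma. The largest differences were those of the proteases ZMPSTE24 (0.62 ± 0.26 SE, adjusted p = 0.178) and RCE1 (0.54 ± 0.25, adjusted p = 0.222) and the methyltransferase ICMT (-0.46 ± 0.30, adjusted p = 0.378).

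**Figure D5:**
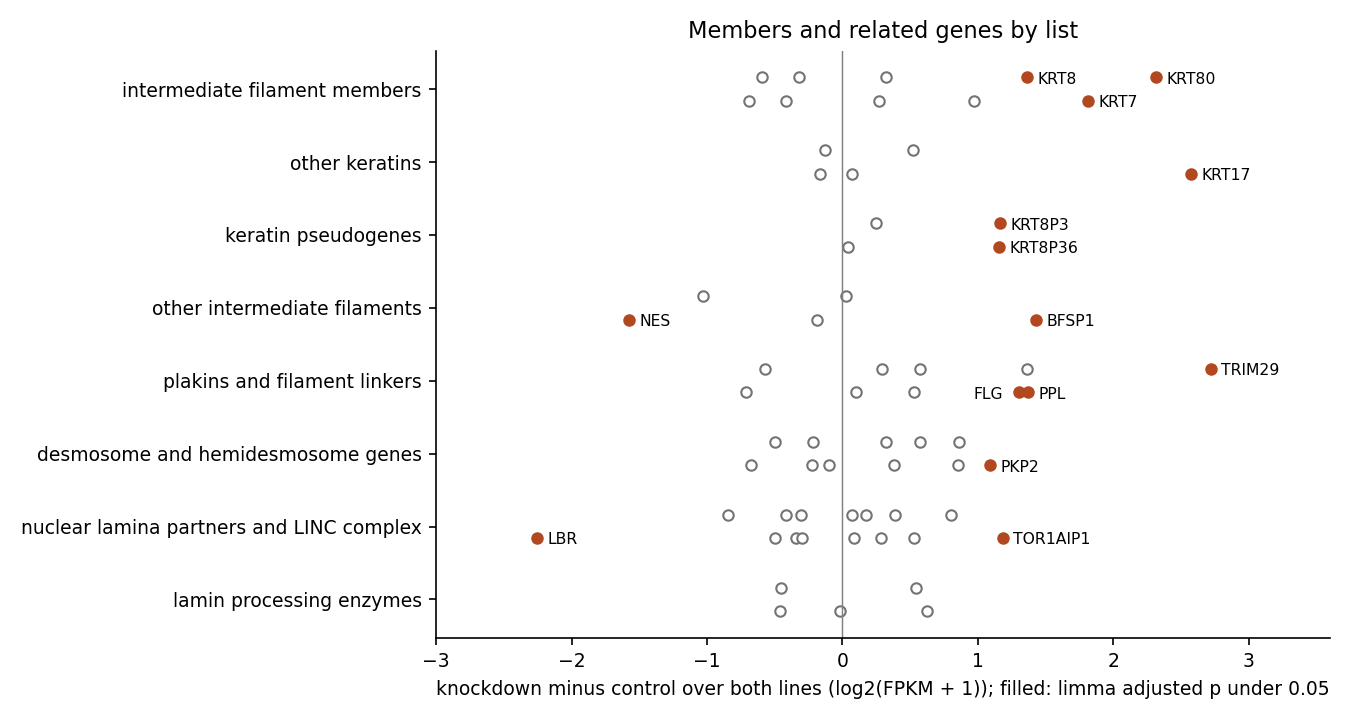
Difference of knockdown minus control over both lines on the log2(FPKM + 1) scale for the 10 genes and 7 lists of related genes, with 1 point per gene that passed the filter and filled points for a limma adjusted p under 0.05. Points are spread vertically only to separate them. KRT80 at 2.32, KRT17 at 2.58 and TRIM29 at 2.72 lie farthest to the right and LBR at -2.26 farthest to the left.

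The profiles of 5 of the genes over the 4 libraries were compared with those of all tested genes, by the Euclidean distance between log2(FPKM + 1) values centred on each gene's mean. With 4 points a small distance is reached by many genes, so the values describe these libraries and carry no test. The closest to KRT8 were SLC2A3, a glucose transporter (distance 0.0559), VASN (0.103) and GPRC5A (0.117). KRT18 was 530th from KRT8, at 0.654, and the genes closest to KRT18 were AC009403.2 (0.0653), ANKRD52 (0.0856) and RAB1A (0.0965). KRT7 was most like EREG, which encodes the growth factor epiregulin (0.255), RP3-416H24.1, which lies inside it (0.275), and CTD-2033D15.1 (0.472). KRT80 was 106th from KRT7, at 1.36. KRT19 was most like SPANXC (0.161), FAM24B (0.328) and NEO1 (0.386), each of which was higher in both BM1 libraries than in either LM2 library. VIM was most like CALM3, a calmodulin gene (0.0369), PGF (0.0617) and OXA1L (0.0873), and of the other 9 intermediate filament genes LMNB1 was nearest to it, at 0.507 in 748th place.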

How the data were processed

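PolyA RNA was sequenced as stranded paired-end libraries, per the labels' protocols. The authors deposited 1 table of FPKM per gene with 4 library columns. The submitters' processing notes name STAR 2.5.3a, Cuffdiff 2.2.1 and GRCh37, without saying which program made which step or wrote the table. Of 20369 rows, 40 that repeat 3 gene identifiers were left out. No value is 0, and the smallest is 1e-06. No read counts were used. The depth was estimated from the spacing of low FPKM values in 1623 genes, of which 36.5% to 44.8% per library lay within 0.02 of a whole number of steps, against 2.33% to 3.07% at other steps.

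From the deposited FPKM, log2(FPKM + 1) was computed with a pseudocount of 1, which understates changes of low genes. Limma 3.58.1 in R 4.3.3 was fitted to 13928 genes with a mean of at least 1 FPKM, with line and treatment in 1 model, two-sided, with Benjamini-Hochberg adjustment and a threshold of 0.05. The line pairs each knockdown with its control, per the labels. Libraries of 1 line deviated together from their treatment means, with a correlation of 0.545 across genes. An exact permutation test of 2 pairs cannot go below p = 0.5, so none is given. Single pairs of libraries were read by a fixed 2-fold rule with no test. The code was tested on simulated data, where the fit made more false calls than the threshold allows, so the adjusted p-values are likely too small. The 10 genes, the lists of related genes and the alternatives were chosen with earlier results of these data known. The text names all 10 genes, the 3 genes with the largest average knockdown difference in each list, every gene of the reported lists called in either comparison, genes that overlap the 10 and the 3 genes most alike to each of 5. Sequences come from GENCODE release 29 (GRCh38), which matched all 10 genes. A further list of related genes and 1 sequence are not reported here. Gene positions are those of the table (GRCh37). Shared words were counted over 50 bases.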

Additional observations from a re-analysis of the deposited data

Results flagged for a closer look

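Of the 10 genes, 5 had a pair of differences that pointed in opposite directions. None of these pairs was tested, since with 1 library per group no degree of freedom is left for the difference between them. All values are on the log2(FPKM + 1) scale.

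With knockdown, VIM differed by -1.02 in BM1 and 0.19 in LM2, KRT19 by -0.93 in BM1 and 0.29 in LM2, and KRT81 by 1.42 in BM1 and -0.79 in LM2. Gaps as large as that of VIM were seen in 6.07% of all tested genes, as large as that of KRT19 in 5.92% and as large as that of KRT81 in 0.696%.

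For LM2 minus BM1, VIM differed by -0.58 in the controls and 0.63 in the knockdowns, and KRT81 by 1.60 and -0.61. KRT8 differed by 0.28 in the controls and -0.12 in the knockdowns, and KRT18 by -0.28 and 0.36. These pairs are made of the same 4 libraries as the knockdown pairs.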

How the results depend on the processing

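The differences of the 10 genes held their direction more firmly than the calls. Over both lines or both treatments, 0 of 180 differences turned in the 9 settings that kept all 4 libraries, and 13 of 80 turned when 1 library was left out. Of 240 differences between single libraries, 1 changed sign and 3 crossed the 2-fold rule, and 0 of 48 filament ratios moved beyond the set limit. No scaling moved the median of all genes by over 0.1.

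For the knockdown, 762 genes were called (3465 at an unadjusted p under 0.05), of which 3 were among the 10. With a pseudocount of 0.1 the counts were 27 and 0. They were 0 and 0 without a filter, with each library scaled to the same sum, after quantile normalization, with no replicate block (line left out) and, in an alternative chosen after seeing the data, with GC and length trends removed. At an unadjusted p under 0.05 limma gave 3735, 3032, 3255, 1548 and 3093 genes under those 5 settings. For LM2 minus BM1, 606 genes were called, 2 of them among the 10. The counts were 216 and 1 with a pseudocount of 0.1, 0 and 0 without a filter (3634 at an unadjusted p under 0.05), 152 and 1 scaled to the same sum, 104 and 1 after quantile normalization, 11 and 0 with no replicate block (treatment left out), and 168 and 1 with the trends removed. The gene kept in each 1 was KRT19. With a 1.5-fold rule the 10 genes gave 9 in place of 5 for BM1 knockdown. For LM2 minus BM1 among knockdowns they gave 4 in place of 2. The share of all tested genes past 1.5-fold was not counted, so these counts show nothing particular to the 10 genes. The cause of the changes between settings was not tested.

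Leaving out 1 library also drops the pairing, and the lone library is assumed to vary like the others. Each knockdown difference then also holds part of the line difference, and each line difference part of the knockdown difference. By limma, each such fit called 0 genes for the knockdown (860 to 1943 at an unadjusted p under 0.05) and 6 to 28 between lines, with 0 of the 10 in either. The knockdown difference ranged from -2.03 to 1.39 for KRT19, turning positive when the BM1 control (1.39) or the LM2 knockdown (0.78) was left out, and from -0.48 to 1.12 for KRT81, turning negative without the BM1 control. LM2 minus BM1 turned without the BM1 control for KRT8 (-0.70 in a range of -0.70 to 0.86), KRT18 (-0.29, range -0.61 to 0.69), KRT80 (-0.70, range -0.70 to 2.09), KRT81 (-0.22, range -0.22 to 1.21) and LMNB1 (0.11, range -0.77 to 0.11). It turned without the BM1 knockdown for VIM (-0.49, range -0.49 to 0.54), and without the LM2 knockdown for VIM (-0.07), KRT8 (-0.50), KRT18 (-0.61) and KRT80 (-0.23).

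No paired analysis beyond the line was possible because each group has 1 library.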
